A study of Homo sapiens with 30 samples.

Results

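GBP1 and GBP2, which encode guanylate-binding proteins, and IRF1, which encodes interferon regulatory factor 1, were followed in human small airway epithelial (SAE) cells exposed to nanoparticles. The genes were found on the array by exact match of the platform's gene symbol, which gave 4 of its 22277 probe sets: 202270_at and 202269_x_at for GBP1, 202748_at for GBP2 and 202531_at for IRF1. The question was whether a higher level of GBP1 after 1 h of exposure was shared by GBP2 and IRF1. The genes were chosen by that 1 h level of GBP1 against control, so every comparison that uses the 1 h arrays is given as a description, with no test of GBP1, GBP2 or IRF1, and tests of these genes are confined to the 24 h arrays.

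Cells obtained from Lonza were grown in flasks in small airway growth medium, and particles were added directly to that medium. Exposed cultures received multi-walled carbon nanotubes (MWCNT) at 10 or 100 ug/ml, or titanium dioxide nanobelts (TiO2-NB) at 10 or 100 ug/ml, for 1 or 24 h, and control cultures received 0 ug/ml for the same times. Each of the 10 groups held 3 biological replicates, which makes 30 arrays, and RNA was taken from the washed adherent cells. The cells of every group are labelled SAE, with no other agent, allele or genotype given. The time between plating and exposure is not given in the sources used here. Values are deposited log2 RMA expression values, on which a difference of 1 is a 2-fold ratio, and errors are SD over 3 arrays for a level or SE from the shared fit for a difference.

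The 30 arrays had medians between 7.15 and 7.21, and within groups the correlation of arrays was at least 0.9943. That correlation is taken over the levels of all probe sets and does not measure the precision of a single gene's difference. Of the 10 epithelial markers, 8 had a probe set of their own symbol and 4 of these had means above the median probe set (7.18), with KRT18 at 12.9, DSP at 10.8, CDH1 at 7.93 and KRT5 at 7.24. KRT14, a basal cell keratin, was low at 3.94. EPCAM at 6.90, CLDN1 at 6.06 and KRT19 at 5.89 also lay below that median. The immune marker PTPRC at 3.50, the myeloid marker LYZ at 3.18, the endothelial marker CDH5 at 3.96 and the fibroblast marker LUM at 2.59 were near the bottom of the scale. Each of these was among the lowest of its list. Above the median probe set stood 1 of 8 measured immune markers (CD14 at 7.71), 3 of 8 fibroblast markers and 1 of 6 endothelial markers (ENG at 8.50). The 3 fibroblast markers were THY1 at 8.18, COL1A1 at 8.02 and PDGFRB at 7.31. In bulk RNA of this kind, fewer cells of a type and less RNA per cell cannot be told apart.

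Guanylate-binding proteins are large GTPases that assemble on the membranes around intracellular bacteria and parasites, and interferon gamma is their best known inducer. In that pathway the interferon gamma receptor signals through the kinases JAK1 and JAK2 and switches on IRF1, a transcription factor that then acts on later genes such as GBP1 and GBP2. IRF1 is also a target of NF-kB, and airway epithelium uses both routes in its answer to infection.

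The genes lie at chr1:89052319-89065208 (GBP1), chr1:89106132-89126114 (GBP2) and chr5:132481609-132490773 (IRF1) in GRCh38.p14, all protein coding. The promoters of GBP1 and IRF1 are printed, and the sequences used here held no promoter of GBP2. The pathway links GBP1 and IRF1 through 2 known elements: the ISRE, which IRF proteins bind, and the GAS, the interferon gamma activated element. Both RefSeq windows (GRCh38.p14) run 5′ to 3′ along the gene, from 250 bases before its start to 50 after it. GBP1 lies on the minus strand at chr1:89065159-89065458, with the ISRE core match in capitals. IRF1 lies on the minus strand at chr5:132490724-132491023, with GAS, NF-kB and EGR matches in capitals.
GBP1: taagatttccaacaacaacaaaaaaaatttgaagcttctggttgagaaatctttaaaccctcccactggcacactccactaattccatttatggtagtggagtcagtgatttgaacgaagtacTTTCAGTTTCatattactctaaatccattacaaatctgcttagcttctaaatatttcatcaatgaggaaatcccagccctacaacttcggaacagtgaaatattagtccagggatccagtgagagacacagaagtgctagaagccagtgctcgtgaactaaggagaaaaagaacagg
IRF1: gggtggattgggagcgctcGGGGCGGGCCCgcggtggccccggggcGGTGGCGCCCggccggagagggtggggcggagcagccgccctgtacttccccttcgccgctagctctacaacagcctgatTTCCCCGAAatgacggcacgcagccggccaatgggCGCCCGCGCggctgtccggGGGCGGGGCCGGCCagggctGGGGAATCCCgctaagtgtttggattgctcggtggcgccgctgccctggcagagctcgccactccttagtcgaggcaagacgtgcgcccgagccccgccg
Both strands were searched for the ISRE core (GAAA, any 2 bases, GAAA), the GAS element TTCNNNGAA, a loose NF-kB core (GGG, any 5 bases, CC), the AP-1 element TGANTCA and the EGR element GCGNGGGCG. The GBP1 window held 1 ISRE core match, TTTCAGTTTC as printed, at positions -127 to -118 from the start, and 3.6% of 35116 RefSeq windows hold one. None of the other 4 motifs matched letter for letter in the GBP1 window, which has 38.7% G and C. A GAS or other element that departs from the searched letters would be missed, so no match does not show that an element is absent. The IRF1 window, with 73.7% G and C, held 1 GAS match at -124 to -116, TTCCCCGAA, an element found in 7.7% of windows. It also held 1 EGR match at -89 to -81 (9.4% of windows) and 6 matches of the NF-kB core, some overlapping each other, which 58.7% of windows hold. No ISRE core or AP-1 match was found in the IRF1 window. A match describes letters and shows no binding.

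GBP1 was higher at 1 h with both particles, at both doses and on both probe sets. On 202270_at, the 3 arrays read 10.99, 11.10 and 11.19 with MWCNT at 100 ug/ml and 9.83, 10.34 and 10.13 with MWCNT at 10 ug/ml, against 9.72, 9.36 and 9.61 in the controls. With TiO2-NB, the same probe set read 10.88, 10.67 and 10.85 at 100 ug/ml and 9.94, 9.83 and 9.99 at 10 ug/ml, against those controls. Every exposed array lay above every control array, and the 100 ug/ml arrays lay clear of the 10 ug/ml arrays.

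The differences from control on 202270_at were 1.53 for MWCNT at 100 ug/ml and 1.23 for TiO2-NB at 100 ug/ml (SE 0.13 each), ratios of 2.88 and 2.35. At 10 ug/ml they were 0.54 for MWCNT and 0.36 for TiO2-NB (SE 0.13 each), ratios of 1.45 and 1.28. These comparisons share their 3 control arrays, so a low control array raises all 4 differences together. The summed level of the 8 measured epithelial markers was also lower at 1 h in exposed arrays, at 11133 to 11496 with MWCNT and 10858 to 11319 with TiO2-NB at 100 ug/ml, against 11948 to 12090 in the controls, and its part in the 1 h differences was not tested. Linear values were summed, so KRT18 (mean log2 12.9) weighs most and DSP (10.8) next. The sum does not show that the 8 markers moved together. The summed level of the 8 measured immune markers was 522 to 574 with MWCNT and 528 to 558 with TiO2-NB at 100 ug/ml, against 545 to 593 in the controls.

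The second probe set of GBP1, 202269_x_at, carries the suffix that marks probes which can also match related transcripts, so its signal cannot be assigned to GBP1 alone. It read 9.67, 9.67 and 9.84 with MWCNT at 100 ug/ml and 8.51, 8.70 and 8.60 with MWCNT at 10 ug/ml, against 8.03, 7.72 and 8.19 in the controls. With TiO2-NB it read 9.73, 9.63 and 9.84 at 100 ug/ml and 8.62, 8.57 and 8.86 at 10 ug/ml. Again no exposed array reached down to the controls.

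On 202269_x_at the differences from control were 1.75 for both particles at 100 ug/ml (SE 0.09), ratios of 3.35 for MWCNT and 3.37 for TiO2-NB. At 10 ug/ml they were 0.62 for MWCNT and 0.70 for TiO2-NB (SE 0.09). Control replicate 2 was the lowest control on both probe sets, and without it the 202269_x_at differences were 1.62 for MWCNT and 1.62 for TiO2-NB at 100 ug/ml, and 0.49 for MWCNT and 0.57 for TiO2-NB at 10 ug/ml. Among 22215 probe sets ordered by their difference from control at 100 ug/ml, the MWCNT ranks of GBP1 were 8 for 202269_x_at and 18 for 202270_at, and the TiO2-NB ranks were 10 for 202269_x_at and 61 for 202270_at.

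GBP2 was measured on a dim probe set, whose mean over the 30 arrays was 5.19, at percentile 22.2 of all probe sets. That is near the levels of the natural killer cell marker NKG7 (5.33) and the fibroblast marker COL3A1 (5.32), the filter on dim probe sets removed GBP2, and the values do not show that it stands above background. Its arrays had the direction of GBP1 at 1 h, with smaller differences. It read 5.43, 5.51 and 5.89 with MWCNT at 100 ug/ml and 5.42, 5.10 and 5.08 with MWCNT at 10 ug/ml, against 4.90, 5.10 and 4.90 in the controls. With TiO2-NB it read 5.31, 5.43 and 5.36 at 100 ug/ml and 5.21, 4.90 and 5.27 at 10 ug/ml. At 100 ug/ml all 3 arrays of each particle stood above all 3 controls, while at 10 ug/ml the arrays of both particles overlapped the controls.

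The GBP2 differences from control were 0.64 for MWCNT and 0.40 for TiO2-NB at 100 ug/ml (SE 0.12 each), ratios of 1.56 and 1.32. At 10 ug/ml they were 0.23 for MWCNT and 0.16 for TiO2-NB (SE 0.12 each), and single arrays decided their size: 0.13 without MWCNT replicate 1, 0.27 without TiO2-NB replicate 2 and 0.09 without TiO2-NB replicate 3. Probe sets differ in brightness and response, so differences on the GBP1 and GBP2 probe sets are not amounts of transcript.

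IRF1 did not share the direction. It read 9.03, 8.95 and 9.01 with MWCNT at 100 ug/ml and 9.10, 9.01 and 9.05 with MWCNT at 10 ug/ml, against 9.21, 9.23 and 9.23 in the 1 h controls. With TiO2-NB it read 9.02, 9.14 and 8.95 at 100 ug/ml and 9.08, 9.20 and 9.15 at 10 ug/ml. All 12 exposed arrays at 1 h lay below all 3 controls.

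The IRF1 differences from control were -0.23 for MWCNT and -0.19 for TiO2-NB at 100 ug/ml, and -0.17 for MWCNT and -0.08 for TiO2-NB at 10 ug/ml (SE 0.05 each). Without TiO2-NB replicate 1 the IRF1 difference at 10 ug/ml was -0.05. In ratio terms the level at 100 ug/ml was 0.851 of the control with MWCNT and 0.877 with TiO2-NB. The 3 control arrays at 1 h differed among themselves by an SD of 0.01, against a pooled within-group SD of 0.05 for IRF1 over the 10 groups.

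**Figure D1:**
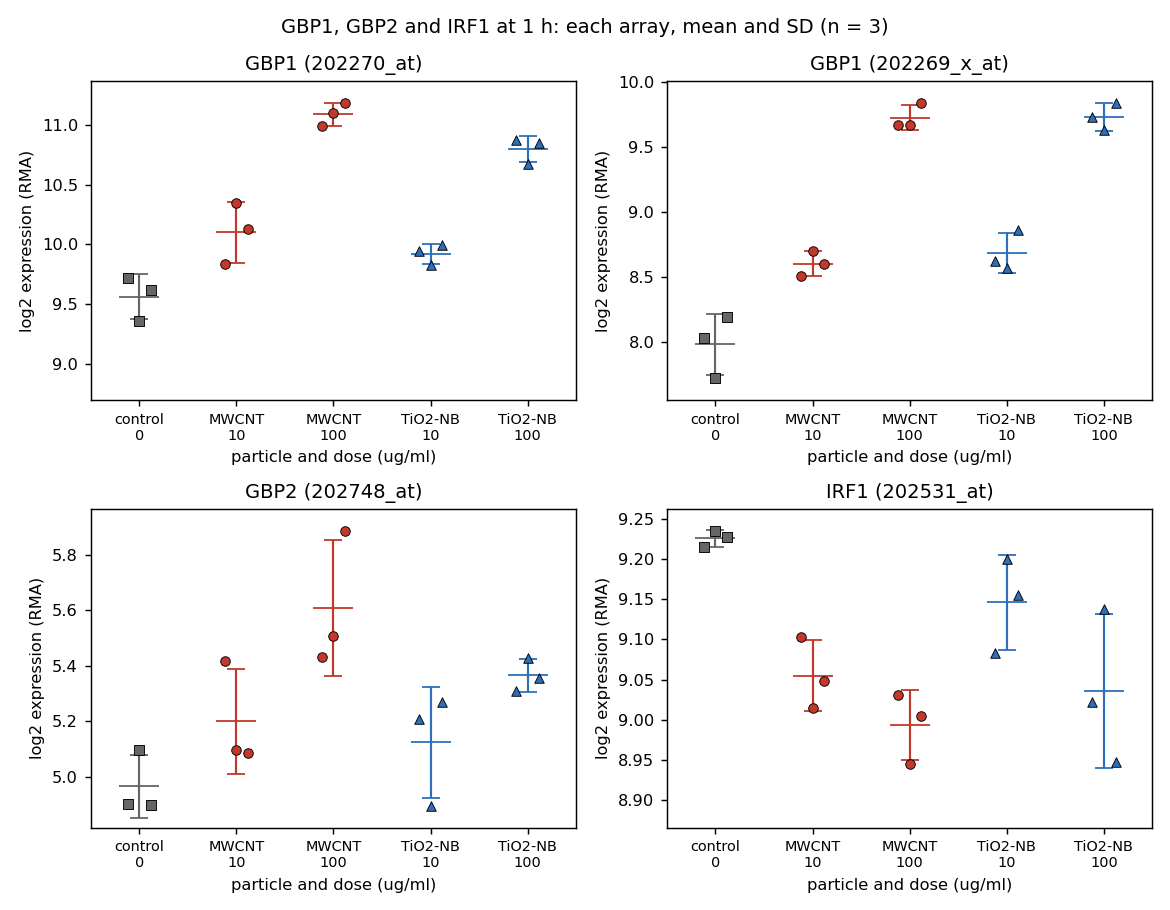
Log2 expression (RMA) of the 4 probe sets at 1 h by particle and dose, with each array as a point and the mean and SD of 3 arrays as bars. Both GBP1 probe sets stand above control in every exposed array and highest at 100 ug/ml, GBP2 clears the controls at 100 ug/ml only, and all exposed IRF1 arrays lie below the controls.

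Counting arrays that do not overlap, 3 of the 4 probe sets were above control and 1 was below it at 100 ug/ml with each particle. For MWCNT at 100 ug/ml, 7.03% of all 22215 probe sets were wholly above control and 9.90% wholly below, and for TiO2-NB at 100 ug/ml the shares were 5.87% and 6.92%. At 10 ug/ml, 2 of 4 were above and 1 below with each particle, where 9.13% and 9.48% of all probe sets were so with MWCNT and 7.78% and 8.11% with TiO2-NB. The choice of genes used these contrasts, so nothing is read from these counts.

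At 1 h the arrays at 10 and 100 ug/ml did not overlap for GBP1 and GBP2, and they overlapped for IRF1. For 100 minus 10 ug/ml, GBP1 differed by 0.99 and 1.13 with MWCNT on 202270_at and 202269_x_at, and by 0.88 and 1.05 with TiO2-NB (SE 0.13 and 0.09). GBP2 differed by 0.41 with MWCNT and 0.24 with TiO2-NB (SE 0.12). In each of these the 3 arrays at 100 ug/ml lay above the 3 at 10 ug/ml, which held for 6.06% of all probe sets with MWCNT and 3.88% with TiO2-NB. IRF1 differed between doses by -0.06 with MWCNT and -0.11 with TiO2-NB (SE 0.05), with overlapping arrays. Relative to its SE, the IRF1 difference with TiO2-NB was no smaller than that of GBP2, so overlap alone set these genes apart there.

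The difference at 10 ug/ml was 29.0% to 40.1% of that at 100 ug/ml for GBP1 and GBP2. With MWCNT this share was 35.2% ± 7.5 and 35.5% ± 4.6 for the GBP1 probe sets 202270_at and 202269_x_at, and 36.4% ± 15.9 for GBP2 (SE, log2 scale). With TiO2-NB it was 29.0% ± 9.4 and 40.1% ± 4.6 for GBP1 and 39.8% ± 25.5 for GBP2. IRF1 gave 73.6% ± 18.1 with MWCNT and 42.1% ± 21.4 with TiO2-NB. The shares of GBP2 and IRF1 carry wide errors, and the IRF1 share with MWCNT lay above the GBP1 shares by more than its own SE.

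The particles differed little at matched dose and time. At 100 ug/ml for 1 h, MWCNT minus TiO2-NB was 0.29 ± 0.13 (SE) for GBP1 on 202270_at with no overlap of arrays, and -0.01 ± 0.09 on 202269_x_at with overlap, so the GBP1 probe sets did not give one answer. GBP2 was higher with MWCNT by 0.24 ± 0.12 with no overlap, and IRF1 differed by -0.04 ± 0.05. At 100 ug/ml 2 of the 4 probe sets had all MWCNT arrays above all TiO2-NB arrays, beside 5.35% of all probe sets. At 10 ug/ml the MWCNT minus TiO2-NB differences ran from -0.09 to 0.18 and all 4 probe sets overlapped, while 11.7% of all probe sets lay wholly above and 11.3% wholly below.

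At 24 h no difference of GBP1 from control passed the test. On 202270_at the arrays read 9.15, 9.19 and 9.16 with MWCNT at 100 ug/ml and 9.10, 9.12 and 9.22 with MWCNT at 10 ug/ml, against 9.41, 8.90 and 9.24 in the 24 h controls. With TiO2-NB they read 9.49, 9.26 and 9.17 at 100 ug/ml and 8.88, 9.37 and 9.10 at 10 ug/ml. The control arrays of this probe set spanned the whole MWCNT range.

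The fitted differences of 202270_at were -0.02 for MWCNT at 100 ug/ml (95% interval -0.29 to 0.25) and 0.12 for TiO2-NB at 100 ug/ml (-0.15 to 0.39). For MWCNT at 10 ug/ml the difference was -0.03 (-0.30 to 0.23) and for TiO2-NB at 10 ug/ml -0.07 (-0.33 to 0.20). On 202269_x_at all 15 arrays lay between 7.77 and 8.02, and the 4 differences ran from 0.03 to 0.09, with no upper limit above 0.28. With TiO2-NB at 100 ug/ml this probe set read 7.94 to 7.97, against 7.83 to 7.92 in the controls, and its difference of 0.09 did not pass. Leaving out control replicate 1 or 2 turned the sign of 202270_at in each of its 4 comparisons with control, to 0.09 for MWCNT and -0.02 for TiO2-NB at 100 ug/ml and to 0.08 for MWCNT and 0.05 for TiO2-NB at 10 ug/ml.

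For GBP2 at 24 h, the arrays read 5.00, 4.90 and 5.01 with TiO2-NB at 10 ug/ml, against 5.27, 5.33 and 5.09 in the controls, and none overlapped, as for 13.3% of all probe sets. The difference was -0.26 (95% interval -0.50 to -0.02), which did not pass (limma adjusted p = 0.177). GBP2 at 100 ug/ml differed by -0.04 with MWCNT and -0.03 with TiO2-NB, and MWCNT at 10 ug/ml differed by -0.13, with adjusted p in limma of 0.892 or more for these 3.

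For IRF1 at 24 h, the arrays read 9.03, 9.06 and 8.99 with MWCNT at 100 ug/ml, against 8.89, 9.01 and 8.91 in the controls. The difference was 0.09 (95% interval -0.01 to 0.18, limma adjusted p = 0.854), and it was 0.01 for TiO2-NB at both doses and -0.01 for MWCNT at 10 ug/ml. With arrays weighted by their quality, the IRF1 difference for MWCNT at 100 ug/ml was 0.11 and passed (limma adjusted p = 0.0379), while with equal weights it did not. Against MWCNT at 10 ug/ml, MWCNT at 100 ug/ml was higher in IRF1 by 0.10 with no overlap, as for 3.45% of all probe sets, and it did not pass (limma adjusted p = 1).

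Over the 8 comparisons at 24 h, none of 32 tests of the 4 probe sets passed in limma at an adjusted p of 0.05. An unadjusted p below that value was found for 2: GBP2 with TiO2-NB at 10 ug/ml against control, and IRF1 between the MWCNT doses. In those comparisons 5398 and 522 of all 22215 probe sets had one. The background was 0% of all probe sets called for MWCNT against control at either dose, 4.71% for TiO2-NB at 10 ug/ml and 10.4% for TiO2-NB at 100 ug/ml. It was 3.75% and 8.91% for MWCNT against TiO2-NB at 10 and 100 ug/ml, 0% for the MWCNT doses and 0.729% for the TiO2-NB doses. The 16 tests between particles and between doses gave differences from -0.14 to 0.23, with a smallest adjusted p of 0.306.

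**Figure D2:**
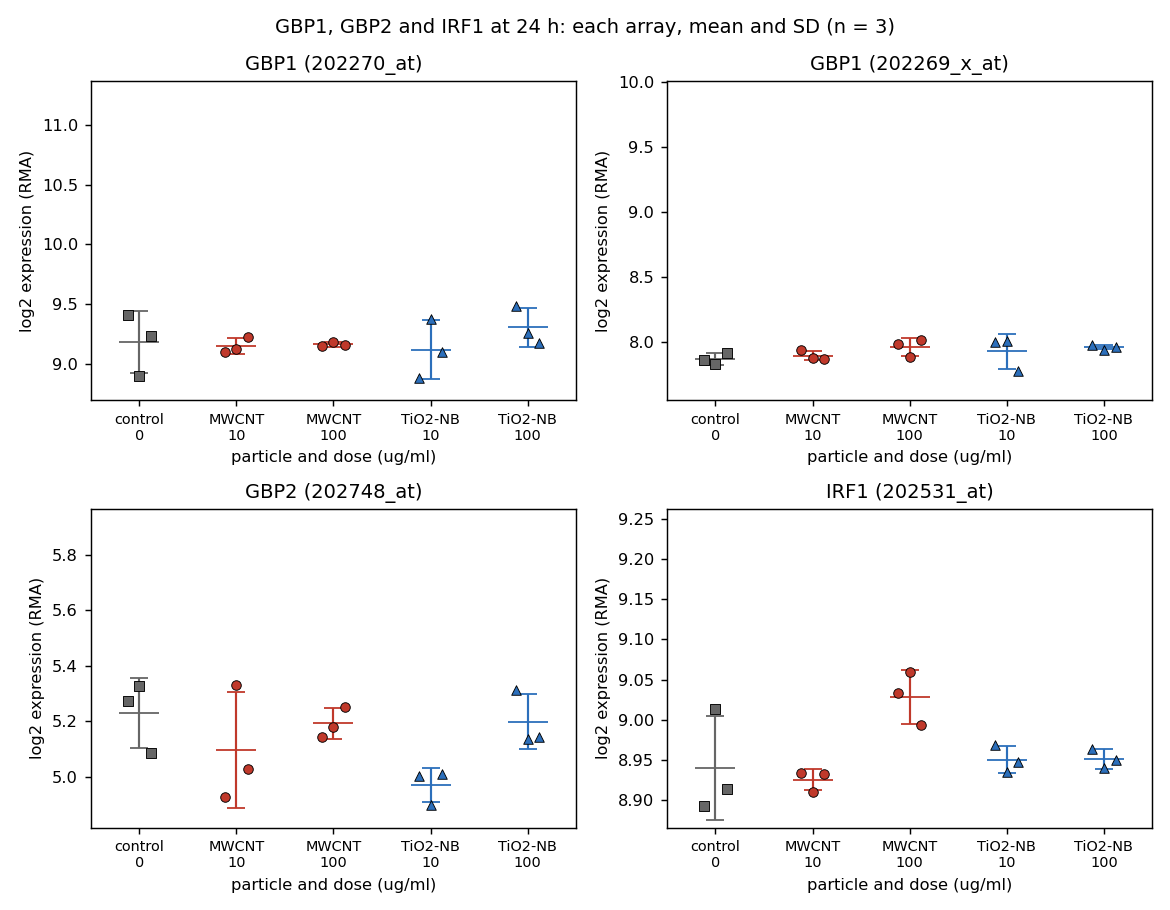
Log2 expression (RMA) of the 4 probe sets at 24 h by particle and dose, with each array as a point, the mean and SD of 3 arrays as bars, and the same vertical scale for each probe set as the plot of 1 h arrays. On 202270_at the MWCNT arrays of GBP1 lie within the range of their controls while 1 array of each TiO2-NB dose lies outside it, and GBP2 with TiO2-NB at 10 ug/ml lies below its controls. On 202269_x_at the arrays of all groups lie close together, between 7.77 and 8.02.

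**Figure D3:**
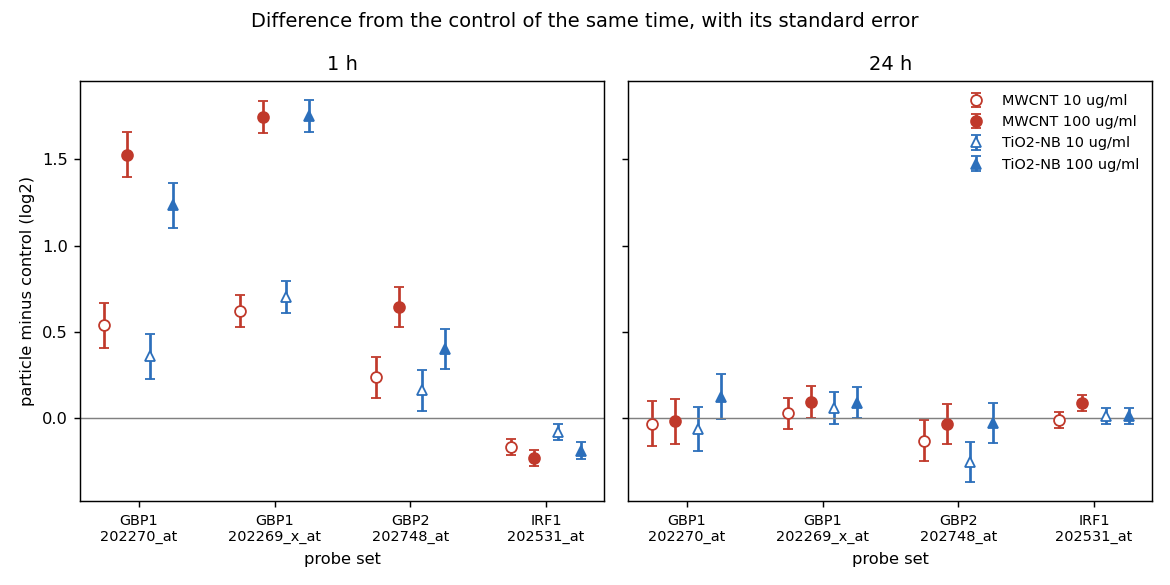
Difference of each particle and dose from the control of the same time (log2) for the 4 probe sets, at 1 h on the left and 24 h on the right, with bars for 1 SE of the fit. The 1 h panel reaches 1.75 for GBP1 and lies below 0 for IRF1, and the 24 h panel keeps between -0.26 and 0.12.

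The controls themselves differed between the times. GBP1 in 24 h controls, against 1 h controls, was lower by 0.38 on 202270_at and by 0.11 on 202269_x_at, GBP2 was higher by 0.26 and IRF1 was lower by 0.29, with SEs of 0.13, 0.09, 0.12 and 0.05 in that order. IRF1 alone of the 4 probe sets had no overlap between its 24 h and 1 h control arrays, where 16.5% of all probe sets were wholly lower. The summed linear level of the 8 epithelial markers, in which KRT18 weighs most, was lower in the 24 h controls (8800 to 10321) than in the 1 h controls (11948 to 12090). Its part in the differences between control times was not tested.

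Ordered by level, the 4 exposed 1 h groups held the top places of both GBP1 probe sets, followed by the 1 h control. On 202270_at the order was MWCNT 100, TiO2-NB 100, MWCNT 10, TiO2-NB 10 and control at 1 h, and on 202269_x_at TiO2-NB came before MWCNT at both doses. For GBP2 the 1 h control was lowest, and for IRF1 the 1 h control was highest. Most neighbouring groups in these orders had overlapping arrays on each of the 4 probe sets. The order includes the 1 h values that chose the genes, so nothing is read from it.

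Genes whose 10 group means followed GBP1 most closely were found by the root mean square difference of centred group means, over 6914 genes of above-median level. ARID5B (0.19), TUFT1 (0.20), ATF3 (0.22), ZNF281 (0.22) and KLF7 (0.23) came closest to 202270_at, while the other probe set of GBP1 stood at 0.14. On the same measure GBP2 stood at 0.56 and IRF1 at 0.67. Their group means spanned 0.64 and 0.30, against 1.97 for 202270_at, so the measure reflects size of change as well as pattern. It also takes in differences between the times. The 1 h differences from control at 100 ug/ml were 0.91 with MWCNT and 0.75 with TiO2-NB for ARID5B, and 1.03 and 1.10 for ZNF281. In the same order they were 0.88 and 0.72 for TUFT1, 0.70 and 0.86 for ATF3, and 1.01 and 1.05 for KLF7. All lay below the 1.53 and 1.23 of GBP1 on 202270_at. GBP2 was followed most closely by CDC42EP3 (0.09), PELI1 (0.10) and TNFAIP3 (0.11), and IRF1 by NHP2, ME3 and DCTPP1 (0.04 each), though a gene with small changes lies close to many others on this measure.

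Other genes of the pathway were taken from lists of the guanylate-binding protein family, the IRF family, interferon ligands, receptors and JAK-STAT, IRF1 and interferon gamma targets, and NF-kB. Of the 81 listed genes beside GBP1, GBP2 and IRF1, 67 had a probe set of their own symbol. GBP3 to GBP7 were among the 14 not analysed here, so the rest of the guanylate-binding proteins cannot be set beside GBP1.

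With MWCNT at 100 ug/ml for 1 h, 2 of the 67 rose and none fell, where 1.17% of all probe sets rose and 0.284% fell. Both were feedback inhibitors of NF-kB. TNFAIP3, a ubiquitin-editing enzyme, averaged 8.02 in exposed cells and 7.44 in controls, a rise of 0.58 ± 0.12 (SE, limma adjusted p = 0.0102). NFKBIA, which holds NF-kB in the cytoplasm, averaged 10.3 in exposed cells and 10.0 in controls, a rise of 0.30 ± 0.07 (limma adjusted p = 0.0304). Leaving out single arrays gave 1 to 3 called genes, and 1 without control replicate 1 or 2 or any of the 3 exposed arrays, or in a fit on only the compared groups.

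With TiO2-NB at 100 ug/ml for 1 h, 3 of the 67 rose and 1 fell, where 2.34% of all probe sets rose and 0.293% fell. The genes that rose were STAT3, a transcription factor of cytokine signalling (0.34 ± 0.09, adjusted p = 0.0434), ICAM1, an adhesion molecule for leukocytes (0.25 ± 0.06, adjusted p = 0.0134), and NFKBIA (0.30 ± 0.07, adjusted p = 0.0231), all in limma. IRF9, the DNA-binding subunit of the complex that answers type I interferon, fell by 0.26 ± 0.06 (limma adjusted p = 0.0213). Leaving out single arrays gave 0 to 3 called genes: none without control replicate 1, 1 without control replicate 2 or exposed replicate 3, and 2 without exposed replicate 2. A fit on only the compared groups called none of the 67. STAT3 also differed by 0.31 with MWCNT at 100 ug/ml (limma adjusted p = 0.0901), and TNFAIP3 by 0.42 with TiO2-NB, neither passing. Between the particles at 100 ug/ml and 1 h none of the 67 passed, where 4 of all 22215 probe sets did.

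At 10 ug/ml for 1 h none of the 67 passed in limma with either particle. Of all probe sets, 0.0315% passed with MWCNT and 1.27% with TiO2-NB. An unadjusted p under 0.05 was found for 8 and 4 of the 67 with MWCNT and TiO2-NB, and for 2385 and 1875 of all 22215 probe sets. None of the 7 measured IRF family members passed as higher in any 1 h comparison with control, where at most 2.34% of all probe sets did. Differences that did not pass went both ways, as for IRF2 (0.18) and IRF7 (-0.19) with TiO2-NB at 100 ug/ml. Among the 27 measured IRF1 and interferon gamma targets at 1 h and 100 ug/ml, none passed with MWCNT in limma. An unadjusted p under 0.05 was found for 6 of the 27, beside 2537 of all 22215 probe sets. The median difference of the 27 was -0.05 beside -0.02 over all probe sets. With TiO2-NB the median of that list was -0.08 beside -0.03, with ICAM1 the only gene called.

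**Figure D4:**
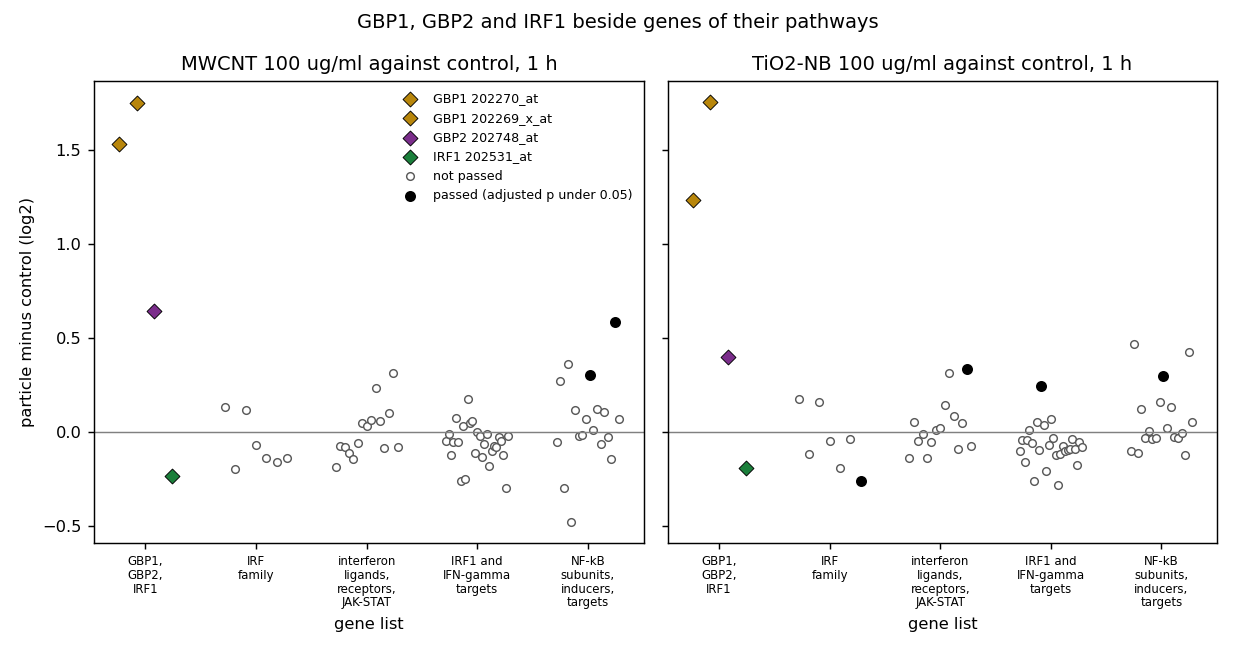
Difference from control (log2) at 1 h and 100 ug/ml, with MWCNT on the left and TiO2-NB on the right, for GBP1, GBP2 and IRF1 (diamonds, not tested) and for 67 other genes in 4 lists (circles, filled where the limma adjusted p is under 0.05). GBP1 at 1.23 to 1.75 stands above every circle, and TNFAIP3 at 0.58 is the highest filled one.

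At 24 h no gene of the lists passed with MWCNT in limma at either dose, where 0% of all probe sets passed. An unadjusted p under 0.05 was found for 2 of the 67 at each dose. It was found for 807 of all 22215 probe sets at 10 ug/ml and 1341 at 100 ug/ml. With arrays weighted by their quality, 10 passed for MWCNT at 100 ug/ml. With TiO2-NB at 100 ug/ml 5 rose and 4 fell, where 3.82% of all probe sets rose and 6.55% fell. CCL2, a monocyte chemokine, rose by 0.51 ± 0.10 (limma adjusted p = 0.00411), and CXCL9, a T cell chemokine induced by interferon gamma, rose by 0.30 ± 0.09 (adjusted p = 0.0422). IDO1, a tryptophan-degrading enzyme induced by interferon gamma, rose by 0.38 ± 0.11 (limma adjusted p = 0.0344), with IRF4 and TNFAIP2 also higher. WARS1, a tryptophanyl-tRNA synthetase of the same list, fell by 0.25 ± 0.05 (limma adjusted p = 0.00369), as did IRF9, IFIT1 and BST2. Without exposed replicate 1 or 3 the count of called genes was 5 or 4, with cyclic loess it was 4, with a fit on only the compared groups 0 and with array weights 17. With TiO2-NB at 10 ug/ml CXCL9 rose and IFIT1 fell, where 2.19% rose and 2.52% fell, and without control replicate 1 or any of the 3 exposed arrays, or with cyclic loess, the filter on dim probe sets or a fit on only the compared groups, neither was called. Beside these calls, GBP1 and IRF1 differed from control by 0.12 at most with TiO2-NB at 24 h, while GBP2 differed by -0.26 at 10 ug/ml, which did not pass.

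Set against TiO2-NB at 100 ug/ml for 24 h, MWCNT had 5 of the 67 higher and 5 lower, beside 5.33% and 3.58% of all probe sets. IRF7, a regulator of type I interferon genes, was higher with MWCNT by 0.35 ± 0.08 (limma adjusted p = 0.00917), and MX1, an antiviral GTPase of the dynamin superfamily like GBP1, by 0.54 ± 0.12 (adjusted p = 0.00811). CIITA, the activator of MHC class II genes, was lower with MWCNT by 0.36 (limma adjusted p = 0.0155), while GBP1, GBP2 and IRF1 differed by -0.14 to 0.08 in the same comparison. The 10 called genes became 3 without MWCNT replicate 3 and 6 without TiO2-NB replicate 1 or 3. In 24 h controls, against 1 h controls, 13 of the 67 rose and 8 fell, beside 16.2% and 11.6% of all probe sets. IRF9 rose by 0.54 ± 0.06 (limma adjusted p = 5.36e-07) and SOCS3, a feedback inhibitor of cytokine signalling, averaged 7.23 at 24 h and 7.99 at 1 h (limma adjusted p = 5.8e-08).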

How the data were processed

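RNA from 30 cultures was measured on Affymetrix arrays. What the authors deposited is 1 log2 number for each probe set and array, made with RMA (version not stated) per the submitters' processing notes. RMA subtracts background, gives all arrays one distribution and combines each set's probes, so a shift shared by all transcripts would not show. No genome build is given for the probe sets. Of 22277 probe sets, 62 array controls were left out; the platform table gave 19064 of the rest 1 symbol, 1043 several and 2108 none.

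All 22215 remaining probe sets were fitted with 10 group means in limma 3.58.1 (R 4.3.3), with two-sided moderated tests and Benjamini-Hochberg adjustment over all of them within a comparison at 0.05. For list genes the probe set with the highest mean was used. The fit was tested on simulated data first. With 3 arrays on each side, exact permutation reaches no two-sided p below 0.1 for 1 gene. GBP1, GBP2, IRF1 and all lists were chosen with earlier results of these data known, so no list is independent evidence.

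Named genes were every probe set of GBP1, GBP2 and IRF1, up to 4 called genes of each list per comparison by size of difference (or the largest difference where none was called), and the 5, 3 and 3 genes with the closest group means. The text names fewer than this rule allows, and BST2 lies outside it: it was named after its values were seen. Replicate numbers in the labels were checked for pairing: correlations of same-numbered deviations ran from -0.23 to 0.33, and in 0 of 17 comparisons was every one over 0.1, so they were not treated as pairs. Alternatives were 1 probe set per gene, a filter on dim probe sets, cyclic loess, a fit on the 2 groups compared, the replicate block, array weights, a trended robust prior and leaving out each array.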

Additional observations from a re-analysis of the deposited data

Results flagged for a closer look

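IRF1 with MWCNT at 100 ug/ml lay on opposite sides of control at the 2 times. At 24 h each of its 3 arrays was above the control mean, with a difference of 0.088, and at 1 h each was below it, with a difference of -0.2319. The difference between the times was not tested, since the 1 h arrays were used in choosing the genes. The exposed arrays averaged 9.03 at 24 h and 8.99 at 1 h, against 8.94 in the 24 h controls and 9.23 in the 1 h controls.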

How the results depend on the processing

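At 1 h, 195 of 200 recomputed differences of GBP1, GBP2 and IRF1 from control moved by less than the spread between arrays and none changed sign. Leaving out single arrays gave, for GBP1 on 202269_x_at, 1.6164 to 1.8492 (MWCNT) and 1.6232 to 1.8560 (TiO2-NB) at 100 ug/ml, and 0.4911 to 0.7239 (MWCNT) and 0.5728 to 0.8057 (TiO2-NB) at 10 ug/ml, and for IRF1 with TiO2-NB at 100 ug/ml -0.2406 to -0.1458.

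At 24 h, where differences from control are near 0, 20 of 200 changed sign and 1 came to pass. Leaving out single arrays, GBP1 on 202270_at ran from -0.1609 to 0.0941 (MWCNT) and -0.0191 to 0.2359 (TiO2-NB) at 100 ug/ml, and from -0.1754 to 0.0795 (MWCNT) and -0.2061 to 0.0526 (TiO2-NB) at 10 ug/ml. GBP2 at 100 ug/ml ran from -0.1074 to 0.0129 (MWCNT) and -0.1015 to 0.0188 (TiO2-NB). IRF1 ran from -0.0380 to 0.0220 for MWCNT at 10 ug/ml, and with TiO2-NB from -0.0123 to 0.0478 at 100 ug/ml and -0.0131 to 0.0470 at 10 ug/ml. Cyclic loess gave 0.0005 for GBP1 (202270_at, TiO2-NB at 10 ug/ml). Array weights, which put most weight of the 24 h controls on replicate 3, gave -0.0237 (MWCNT) and -0.0092 (TiO2-NB) for 202269_x_at at 10 ug/ml, 0.0786 (MWCNT) and 0.0702 (TiO2-NB) for GBP2 at 100 ug/ml, and 0.0070 at 10 and 0.1145 at 100 ug/ml for IRF1 with MWCNT; the last passed (limma adjusted p = 0.0379), which makes 1 call of 32 in place of 0. The causes were not tested.

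The count of list genes called moved more. At 1 h and 100 ug/ml a fit on the 2 groups gave 1 (MWCNT, against 2) and 0 (TiO2-NB, against 4), and leaving out single arrays gave 1 to 3 and 0 to 3. At 24 h array weights gave 10 for MWCNT at 100 ug/ml (against 0), and 17 and 8 for TiO2-NB at 100 and 10 ug/ml (against 9 and 2). For TiO2-NB at 100 ug/ml cyclic loess gave 4, the 2-group fit 0 and leaving out single arrays 4 to 11. For TiO2-NB at 10 ug/ml the dim filter, cyclic loess and the 2-group fit gave 0, the trended prior 1 and leaving out single arrays 0 to 2. With the replicate block the count for TiO2-NB at 10 ug/ml was 1, GBP2 with TiO2-NB at 10 ug/ml kept -0.26 (limma adjusted p = 0.204), and the block changed no call of GBP1, GBP2 or IRF1. For MWCNT against TiO2-NB at 100 ug/ml and 24 h, array weights gave 18 list genes (against 10) and leaving out single arrays 3 to 9. With 3 arrays a group, the 95% interval of GBP1 on 202270_at for MWCNT at 100 ug/ml and 24 h spans -0.29 to 0.25.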
